A study of Homo sapiens with 12 samples.

Results

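The SLC25 family encodes the mitochondrial carriers, most of which sit in the inner mitochondrial membrane and exchange nucleotides, phosphate, carboxylic acids, amino acids, cofactors and ions between the matrix and the cytosol. Members were the protein-coding genes named SLC25A with a number that had at least 10 counts in at least 3 of the 12 libraries of the series, with 1 gene of the family left out by the rule whatever its counts and not reported here. Of the 46 other genes, 41 met the count minimum, out of 57773 genes in the deposited files. Just inside it stood SLC25A18, with 10 or more counts in 5 libraries, and SLC25A48, with 10 or more in 6. Just outside it stood SLC25A2 and SLC25A41, with at most 4 counts in a library, then SLC25A52 with at most 3 and SLC25A31 with at most 1. SLC25A47 had 0 counts in every library.

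RNA came from T47D cells, an estrogen receptor-positive human breast cancer line with a doxycycline-inducible hairpin (shRNA) that targets PSMD2, which encodes part of the regulatory cap (19S) of the proteasome. The Lo19S state was made with 0.2 µg/ml doxycycline for 3 days and then 24 h without it, while control cells carried the same hairpin uninduced, so hairpin and doxycycline cannot be told apart. Cells then had 16 h with the proteasome inhibitor bortezomib at 20 nM or with its solvent DMSO. This gave 4 groups of 3 libraries: Lo19S cells with bortezomib, control cells with bortezomib, Lo19S cells with DMSO and control cells with DMSO. Whether the line is 1 clone, and whether libraries came from separate cultures, the labels do not say. The p-values therefore describe the spread among these libraries, which may be technical.

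Carriers share a fold of repeated membrane segments around a single binding site that opens alternately to either side. They set how the tricarboxylic acid cycle, oxidative phosphorylation, amino acid metabolism and cofactor supply of the matrix connect to the cytosol. Carrier proteins are made in the cytosol from nuclear genes and enter the inner membrane through the TIM22 import complex.

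Library totals ran from 7376597 to 15003480 counts. The targeted gene, PSMD2, was at 539.6 to 545.8 CPM in Lo19S cells with bortezomib and 1509 to 1528 CPM in control cells with bortezomib, and at 182.9 to 189.2 CPM in Lo19S cells with DMSO against 392 to 417.3 CPM in control cells with DMSO. CPM, the counts scaled to a fixed library total, were adjusted between libraries by trimmed means of M values (TMM). One library differed from its partners more than any other did: control DMSO replicate 3 gave 3.98 and 4.36 (chi-square over its degrees of freedom, from gene counts), where all other pairs within a group gave 1.16 to 2.01. Summed markers of luminal epithelium, the cell type of the line, ran from 3940 to 4120 CPM and 3960 to 4040 CPM in Lo19S and control cells with bortezomib, against 6430 to 6550 CPM and 7190 to 7310 CPM in Lo19S and control cells with DMSO. None of the 10 luminal markers was at 0 in all libraries. The 6 fibroblast markers summed to 44.1 to 47.0 CPM, 63.5 to 69.6 CPM, 32.9 to 33.6 CPM and 25.9 to 31.4 CPM in the same order of groups. Leukocyte markers (5) and endothelial markers (3 of 4 found) summed to at most 1.22 CPM and 0.372 CPM, with CD3E at 0 in all libraries. The part of these marker differences in the results was not tested. In these bulk libraries fewer cells of a kind and less RNA per cell cannot be told apart.

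The bases before the start sites of 4 carriers that rose with bortezomib in both states are shown first, because they hold motifs that were searched in the 250 bases before every start listed for a gene. The sequences are RefSeq entries on GRCh38.p14, whereas the reads were counted on GRCh37, and 35 of the 41 members had an entry. Several of these genes have more than 1 listed start, and the counts do not tell which was in use. For those genes the window printed is one that holds matches. The other windows listed for SLC25A25 hold none of the marked motifs, and those for SLC25A26 hold GAANNTTC but not CACGTG. The match of SLC25A25 to TGACNNNGC, a motif searched but not marked, lies outside its printed window. Capitals mark TGACGTCA (the cyclic AMP response element palindrome), CACGTG (the E-box) and GAANNTTC (the core of the heat shock element), read on both strands. The windows lie on the plus strand at chr9:128098257-128098506 for SLC25A25, chr1:9539215-9539464 for SLC25A33, chr3:140941586-140941835 for SLC25A36 and chr3:66220751-66221000 for SLC25A26.
SLC25A25: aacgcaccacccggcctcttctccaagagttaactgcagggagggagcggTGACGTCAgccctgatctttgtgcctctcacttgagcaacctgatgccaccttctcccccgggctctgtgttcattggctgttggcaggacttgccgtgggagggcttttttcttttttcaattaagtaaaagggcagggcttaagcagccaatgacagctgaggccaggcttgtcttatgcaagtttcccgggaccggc
SLC25A33: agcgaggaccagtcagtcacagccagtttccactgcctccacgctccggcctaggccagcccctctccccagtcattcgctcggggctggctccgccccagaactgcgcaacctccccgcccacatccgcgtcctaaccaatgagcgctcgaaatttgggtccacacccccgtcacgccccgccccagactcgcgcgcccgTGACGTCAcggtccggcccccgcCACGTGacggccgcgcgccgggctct
SLC25A36: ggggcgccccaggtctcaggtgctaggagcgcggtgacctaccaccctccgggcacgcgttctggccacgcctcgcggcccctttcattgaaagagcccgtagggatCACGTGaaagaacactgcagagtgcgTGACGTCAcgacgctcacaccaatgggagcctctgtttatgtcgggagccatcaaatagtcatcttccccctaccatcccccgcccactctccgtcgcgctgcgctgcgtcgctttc
SLC25A26: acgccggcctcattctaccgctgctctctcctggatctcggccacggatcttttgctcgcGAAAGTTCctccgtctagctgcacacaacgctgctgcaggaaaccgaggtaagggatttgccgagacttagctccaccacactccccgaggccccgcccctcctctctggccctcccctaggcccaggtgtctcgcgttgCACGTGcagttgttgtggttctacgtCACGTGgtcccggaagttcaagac

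TGACGTCA lay in a window of 3 of the 35 members, SLC25A25, SLC25A33 and SLC25A36, and in 2.03% of all 27305 genes with an entry. CACGTG lay in windows of 7 members, SLC25A13, SLC25A26, SLC25A33, SLC25A36, SLC25A38, SLC25A46 and SLC25A51, and in 7.73% of all genes. GAANNTTC was found in 3 members, SLC25A24, SLC25A26 and SLC25A28, and in 7.05% of all genes. Of the other motifs searched, TGATGNAA was found in SLC25A11 and in 3.89% of all genes, and TGACNNNGC in 7 members and in 13.2% of all genes. Of those 7, SLC25A25 rose with bortezomib in both states, and SLC25A1, SLC25A5, SLC25A13 and SLC25A22 fell in both. SLC25A24 fell in control cells and SLC25A39 in Lo19S cells. SLC25A13 also holds CACGTG and SLC25A24 GAANNTTC, so matches were not limited to carriers that rose. Matches of 2 motifs overlapped in 1 of the 46 windows of members. The motifs and the 4 genes were chosen with the results known, and a match is a description of letters and not of a binding site.

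Levels of different carriers were compared per kilobase of transcript. SLC25A3, the phosphate carrier that also brings copper into the matrix, was the most abundant member in each of the 4 groups, at 450.5 CPM per kb in Lo19S cells with bortezomib, 482.8 CPM per kb in control cells with bortezomib, 453.7 CPM per kb in Lo19S cells with DMSO and 443.5 CPM per kb in control cells with DMSO. It took between 28.7% and 32.1% of all counts of the 41 members in a library. In control cells with DMSO it was followed by the ADP/ATP carrier SLC25A5 at 196.3 CPM per kb, SLC25A39, a carrier of glutathione, at 130.8 CPM per kb and the citrate carrier SLC25A1 at 77.5 CPM per kb. In control cells with bortezomib SLC25A39 (123.4 CPM per kb) stood above SLC25A5 (108.4 CPM per kb), and the branched-chain amino acid carrier SLC25A44 came next at 48.7 CPM per kb. The members together summed to 2508 ± 14.5 CPM in Lo19S cells with bortezomib, 2567 ± 25.2 CPM in control cells with bortezomib, 2551 ± 13.4 CPM in Lo19S cells with DMSO and 2584 ± 43.3 CPM in control cells with DMSO (SD, n = 3 each). The sum depends on the scaling: over library totals it was 2316 ± 7.02 CPM in Lo19S cells with bortezomib, 2195 ± 22.5 CPM in control cells with bortezomib, 2875 ± 18.5 CPM in Lo19S cells with DMSO and 2877 ± 52.1 CPM in control cells with DMSO (SD, n = 3 each), lower in every bortezomib library than in every DMSO library.

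Tests come from 1 model fitted over 14714 genes in all 12 libraries with edgeR's quasi-likelihood test, and a gene was called at a Benjamini-Hochberg adjusted p below 0.05 over all genes tested. Responses are log2 fold changes of that fit, given with their standard error (SE). All 41 members passed the filter on low counts.

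**Figure D1:**
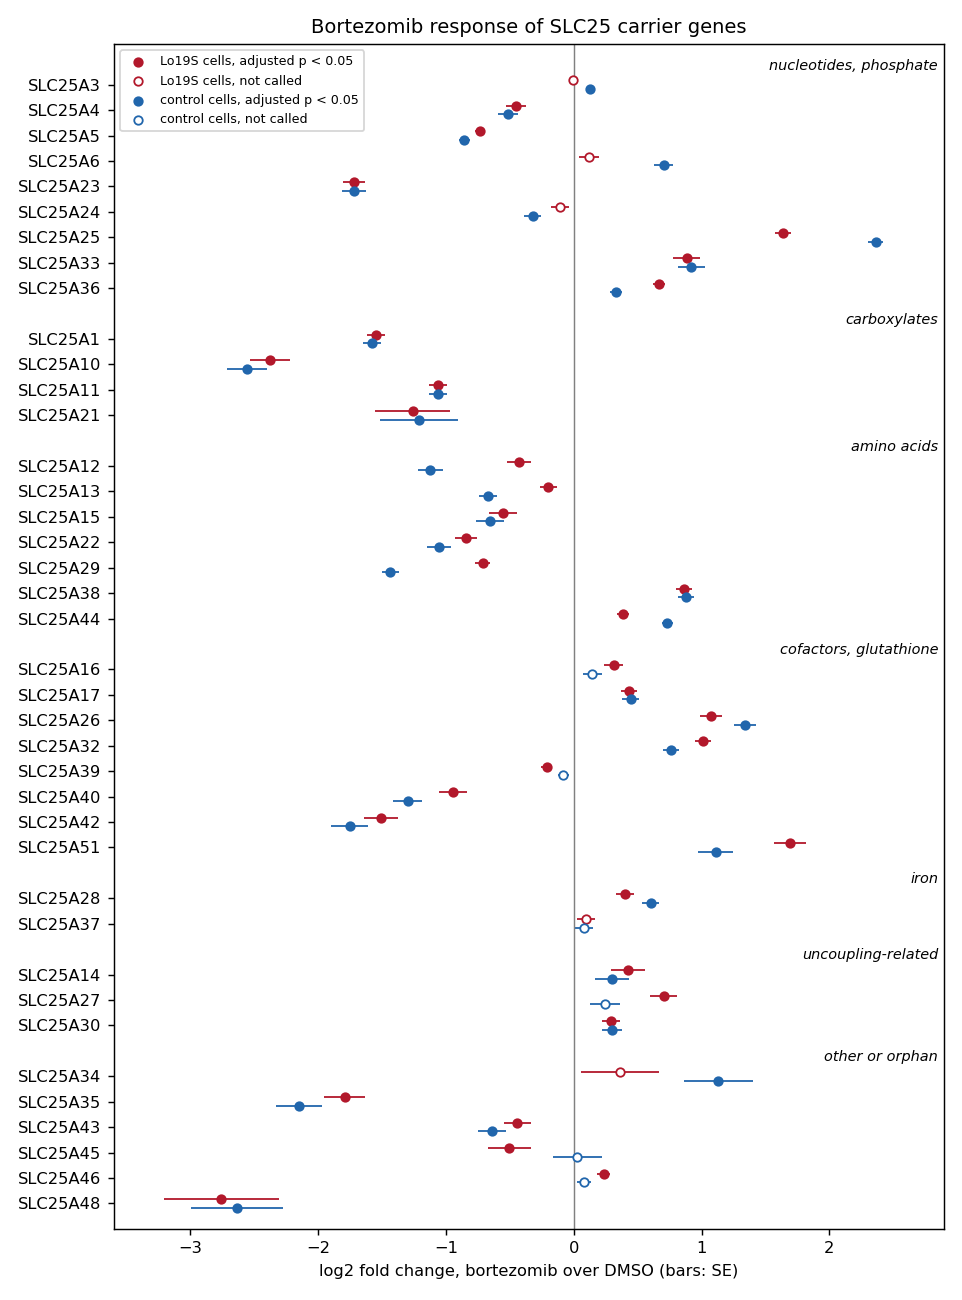
Log2 fold change of bortezomib over DMSO (x axis) of 39 members by substrate class (y axis), in Lo19S cells (red) and control cells (blue), with bars of 1 SE and filled points for calls at adjusted p below 0.05. SLC25A18 is not drawn because it had 0 counts in control cells with bortezomib, and 1 other member is not reported here; the 4 carboxylate carriers lie left of 0 in both states.

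With bortezomib most carriers changed, in both directions. In Lo19S cells 15 members rose and 21 fell, 87.8% of the 41, where 77.5% of all genes tested were called (37.8% higher and 39.7% lower). In control cells 15 rose and 20 fell, 85.4%, where 81.4% of all genes were called (39.2% higher and 42.2% lower). Both shares lie near those of all genes. At least 2-fold falls were called for 9 members in Lo19S cells (22%, against 18.5% of all genes) and for 13 in control cells (31.7%, against 22.1%). These falls include SLC25A18 and SLC25A48, which met the count minimum only through DMSO libraries, so their falls are in part built in by the rule. At least 2-fold rises were called for 4 members in each state (9.76%), against 10.3% of all genes in Lo19S cells and 14.5% in control cells. The members' median response was -0.20 in Lo19S cells and -0.08 in control cells, beside -0.02 and -0.04 over all genes. The bortezomib and DMSO libraries did not overlap for 37 of 41 members in Lo19S cells and 36 in control cells, where 79.2% and 81.1% of all genes did not overlap. They overlapped for SLC25A3, SLC25A6, SLC25A24 and SLC25A37 in Lo19S cells and for SLC25A14, SLC25A37, SLC25A39, SLC25A45 and SLC25A46 in control cells, so for all other members below the 3 bortezomib libraries of a state lay on 1 side of its 3 DMSO libraries. Both states showed a call for 31 of 41 members, where 71.1% of all genes were called in both. SLC25A37 was the 1 member called in no comparison on the TMM scale, where 9.55% of all genes were called in none. On library totals it was called lower in both states.

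These splits depend on the scaling. With library totals in place of TMM factors, the median response over all genes moved to -0.31 in Lo19S cells and -0.42 in control cells, and 10 members were called higher and 25 lower in each state. Of all 14714 genes, 3731 were then called higher and 7918 lower in Lo19S cells, and 3717 higher and 8452 lower in control cells. Directions below are relative to the TMM scale. On library totals the rises of SLC25A3, SLC25A14, SLC25A30 and SLC25A36 in control cells and of SLC25A46 in Lo19S cells turned negative, which is repeated beside each of them. Of these, only SLC25A3 was then called lower (-0.26, adjusted p = 2.35e-10).

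Of 9 carriers of nucleotides and phosphate, 3 rose and 3 fell in Lo19S cells and 5 rose and 4 fell in control cells, and those regulated by calcium split. SLC25A23, SLC25A24 and SLC25A25 exchange ATP-Mg for phosphate and are activated by cytosolic calcium. SLC25A25 was at 82.7, 85.9 and 82.0 CPM with bortezomib and 24.7, 28.7 and 26.9 CPM with DMSO in Lo19S cells. Control cells ran at 136, 138 and 137 CPM with bortezomib and 25.3, 28.8 and 26.1 CPM with DMSO. All 6 bortezomib libraries were above all 6 DMSO libraries, and the control libraries with bortezomib were the highest. The rise was 1.64 (SE 0.063, adjusted p = 7.59e-28) in Lo19S cells and 2.36 (SE 0.060, adjusted p = 1.1e-35) in control cells, the largest rise of a member in control cells. SLC25A23 went the other way, at 16.5, 13.2 and 11.8 CPM with bortezomib against 43.9, 46.1 and 43.8 CPM with DMSO in Lo19S cells. Control cells had 11.4, 12.8 and 13.1 CPM with bortezomib and 41.1, 38.7 and 43.2 CPM with DMSO. It fell by 1.72 on the log2 scale in both states (SE 0.089 in Lo19S cells and 0.094 in control cells). SLC25A24 was at 45.8, 44.0 and 51.2 CPM with bortezomib and 52.7, 50.3 and 51.0 CPM with DMSO in Lo19S cells, a response of -0.11 that was not called (adjusted p = 0.147). It was called on library totals (-0.40, adjusted p = 1.48e-06), with no filter (-0.16, adjusted p = 0.044) and without Lo19S bortezomib replicate 3 (-0.19, adjusted p = 0.0362). Control cells had 46.3, 45.8 and 42.4 CPM with bortezomib and 59.1, 59.9 and 48.9 CPM with DMSO, a response of -0.32 (SE 0.070) that was called.

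The ratio of SLC25A25 to SLC25A23 counts within a library does not depend on the scaling. It was 5.01, 6.52 and 6.93 in Lo19S cells with bortezomib and 0.563, 0.621 and 0.615 in Lo19S cells with DMSO. In control cells it was 12, 10.8 and 10.5 with bortezomib and 0.616, 0.743 and 0.604 with DMSO. The counts of SLC25A25 exceeded those of SLC25A23 in all 6 bortezomib libraries and lay below them in all 6 DMSO libraries. SLC25A25-AS1, an antisense gene, had 13 to 45 counts a library in Lo19S cells with bortezomib, 31 to 43 in control cells with bortezomib, 80 to 95 in Lo19S cells with DMSO and 73 to 83 in control cells with DMSO. The labels do not give the strand setting of the counting, so reads of the 2 genes cannot be told apart where they overlap.

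SLC25A33 and SLC25A36 import pyrimidine nucleotides, which mitochondrial DNA and RNA synthesis use. In Lo19S cells SLC25A33 was at 20.4, 20.1 and 19.8 CPM with bortezomib and 10.9, 9.38 and 12.6 CPM with DMSO. The values in control cells were 23.6, 20.4 and 22 CPM with bortezomib and 11.8, 12.5 and 10.5 CPM with DMSO. It rose by 0.88 (SE 0.107) in Lo19S cells and 0.92 (SE 0.105) in control cells, with no overlap between treatments. SLC25A36 was at 244, 248 and 255 CPM in Lo19S cells with bortezomib and 151, 159 and 162 CPM in Lo19S cells with DMSO. Control cells had 203, 192 and 182 CPM with bortezomib and 159, 161 and 139 CPM with DMSO. It rose by 0.67 (SE 0.046) in Lo19S cells and by 0.33 (SE 0.047) in control cells, where its value on library totals was -0.05.

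The ADP/ATP carriers, which export the ATP made in the matrix, also moved unequally. SLC25A5, the main form in dividing cells, was at 139.9, 144 and 134 CPM with bortezomib against 235, 224 and 234 CPM with DMSO in Lo19S cells. In control cells it was at 136, 142 and 137 CPM with bortezomib and 253, 246 and 252 CPM with DMSO. Both states showed a fall, with -0.74 (SE 0.041) in Lo19S cells and -0.86 (SE 0.041) in control cells, and no treatments overlapped. SLC25A4, the muscle and heart form, had 29.6, 26.0 and 26.4 CPM in Lo19S cells with bortezomib and 38.6, 38.4 and 34.8 CPM in Lo19S cells with DMSO. Control cells had 30.8, 31.7 and 26.2 CPM with bortezomib and 40.7, 43.4 and 43.0 CPM with DMSO. Responses were negative in both states, at -0.45 (SE 0.077) in Lo19S cells and -0.52 (SE 0.076) in control cells. SLC25A6 was at 38.0, 32.5 and 35.9 CPM with bortezomib and 32.7, 33.4 and 32.2 CPM with DMSO in Lo19S cells, which was not called (0.12, adjusted p = 0.153). It was called lower there on library totals (-0.17, adjusted p = 0.0478) and higher without Lo19S bortezomib replicate 2 (0.19, adjusted p = 0.0373). Control cells ran at 47.5, 50.8 and 50.4 CPM with bortezomib and 26.1, 31.9 and 33.9 CPM with DMSO, a rise of 0.70 (SE 0.076). These 3 genes are closely similar in sequence and have many processed copies, and SLC25A6 lies in the region shared by the X and Y chromosomes. The labels do not say how reads matching several places were treated, so their separate values are uncertain. The count ratio of SLC25A6 to SLC25A5 was 0.272, 0.225 and 0.268 in Lo19S cells with bortezomib and 0.139, 0.149 and 0.137 in Lo19S cells with DMSO. In control cells it ran at 0.350, 0.357 and 0.369 with bortezomib and 0.103, 0.130 and 0.135 with DMSO, so the bortezomib libraries of both states lay above all DMSO libraries.

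SLC25A3 was at 772, 744 and 752 CPM in Lo19S cells with bortezomib and 753, 757 and 773 CPM in Lo19S cells with DMSO, a response of -0.010 (SE 0.031, adjusted p = 0.779) that on library totals was a called fall (-0.30, adjusted p = 5.26e-12). Control cells had 810.2, 805 and 815 CPM with bortezomib and 732, 746 and 755 CPM with DMSO. The rise in control cells was small, 0.12 (SE 0.031, adjusted p = 0.000463). On library totals the response in control cells was a called fall (-0.26, adjusted p = 2.35e-10), and with no filter the rise was not called (adjusted p = 0.33).

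All 4 carboxylate carriers fell in both states, with median responses of -1.41 in Lo19S cells and -1.40 in control cells. SLC25A10, the dicarboxylate carrier that exchanges malate and succinate for phosphate, was at 2.03, 3.07 and 3.10 CPM with bortezomib and 14.3, 15.4 and 13.7 CPM with DMSO in Lo19S cells. Control cells had 3.42, 2.23 and 3.22 CPM with bortezomib and 16.5, 16.2 and 19.3 CPM with DMSO. Its responses were -2.38 (SE 0.158, adjusted p = 1.37e-18) in Lo19S cells and -2.55 (SE 0.156, adjusted p = 3.87e-20) in control cells. SLC25A1 exports citrate, from which the cytosol makes acetyl-CoA for lipid synthesis. It was at 42.1, 42.7 and 39.9 CPM with bortezomib and 119, 126 and 118 CPM with DMSO in Lo19S cells, and at 39.5, 43.2 and 45.1 CPM with bortezomib and 118, 119.8 and 145 CPM with DMSO in control cells. It fell, with responses of -1.55 (SE 0.068) in Lo19S cells and -1.58 (SE 0.068) in control cells, and the treatments did not overlap although control DMSO replicate 3 was its highest library. SLC25A11, which exchanges oxoglutarate for malate, fell by 1.06 in both states (SE 0.068 in Lo19S cells and 0.070 in control cells). SLC25A21, a carrier of oxodicarboxylates from lysine and tryptophan breakdown, had 7 to 43 counts a library and fell, with responses of -1.26 (SE 0.293) in Lo19S cells and -1.21 (SE 0.304) in control cells. Its antisense partner SLC25A21-AS1 had 29 to 58 counts in Lo19S cells with bortezomib, 21 to 31 in control cells with bortezomib, 77 to 106 in Lo19S cells with DMSO and 86 to 115 in control cells with DMSO.

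Of 8 amino acid carriers, 2 rose and 6 fell in each state. SLC25A12 (aralar) and SLC25A13 (citrin) exchange aspartate for glutamate in the malate-aspartate shuttle. SLC25A12 was at 15.2, 19.2 and 16.7 CPM with bortezomib and 22.6, 22.3 and 23.3 CPM with DMSO in Lo19S cells. In control cells it was at 12, 10.9 and 11.1 CPM with bortezomib and 24.4, 25.2 and 24.3 CPM with DMSO. Its responses were -0.43 (SE 0.091) in Lo19S cells and -1.12 (SE 0.100) in control cells. SLC25A13 had 44.0, 45.1 and 43.7 CPM in Lo19S cells with bortezomib and 52.8, 49.6 and 49.7 CPM in Lo19S cells with DMSO. Control cells had 40.7, 31.4 and 33.9 CPM with bortezomib against 55.8, 57.5 and 55.2 CPM with DMSO. Both states showed a fall, with -0.20 (SE 0.067, adjusted p = 0.0062) in Lo19S cells and -0.67 (SE 0.070) in control cells. For both genes the control libraries with bortezomib were the lowest of the 4 groups.

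SLC25A29, a carrier of basic amino acids such as arginine and lysine, was at 48.5, 54.6 and 50.9 CPM with bortezomib and 84.1, 84.5 and 82.9 CPM with DMSO in Lo19S cells. Control cells had 33.7, 29.2 and 28.9 CPM with bortezomib and 81.1, 76.6 and 90.4 CPM with DMSO. Responses were negative in both states, at -0.71 (SE 0.062) in Lo19S cells and -1.44 (SE 0.068) in control cells. SLC25A22, a glutamate carrier, fell, with responses of -0.84 (SE 0.088) in Lo19S cells and -1.05 (SE 0.093) in control cells. SLC25A15, the ornithine carrier of the urea cycle, fell less, with -0.55 (SE 0.109) and -0.65 (SE 0.110) in Lo19S and control cells. SLC25A18, the second glutamate carrier, had almost no counts with bortezomib. It met the count minimum only through DMSO libraries, so its fall is in part built in by the rule and is given as a description. It had 1 count in all in Lo19S cells with bortezomib against 37 in Lo19S cells with DMSO, a scaled ratio of 32.1 with a 95% counting interval of 5.41 to 1300. Control cells had 0 counts with bortezomib and 34 with DMSO, which makes it at least 8.34-fold lower when 3 counts over the group are allowed. The interval and the bound cover counting error only.

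The 2 amino acid carriers that rose were SLC25A38 and SLC25A44. SLC25A38 imports glycine for the first step of heme synthesis. It was at 63.0, 60.9 and 66.4 CPM with bortezomib and 33.2, 34.9 and 37.5 CPM with DMSO in Lo19S cells, and at 66.9, 64.8 and 66.7 CPM with bortezomib and 36.9, 34.8 and 36.1 CPM with DMSO in control cells. The rise was 0.86 (SE 0.063) in Lo19S cells and 0.88 (SE 0.063) in control cells. SLC25A44 imports branched-chain amino acids. Its values in Lo19S cells were 139.8, 138 and 134 CPM with bortezomib and 107, 109 and 98.9 CPM with DMSO, and in control cells 165, 173 and 169.9 CPM with bortezomib and 100.1, 102 and 104 CPM with DMSO. It rose by 0.39 (SE 0.046) in Lo19S cells and by 0.73 (SE 0.045) in control cells.

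**Figure D2:**
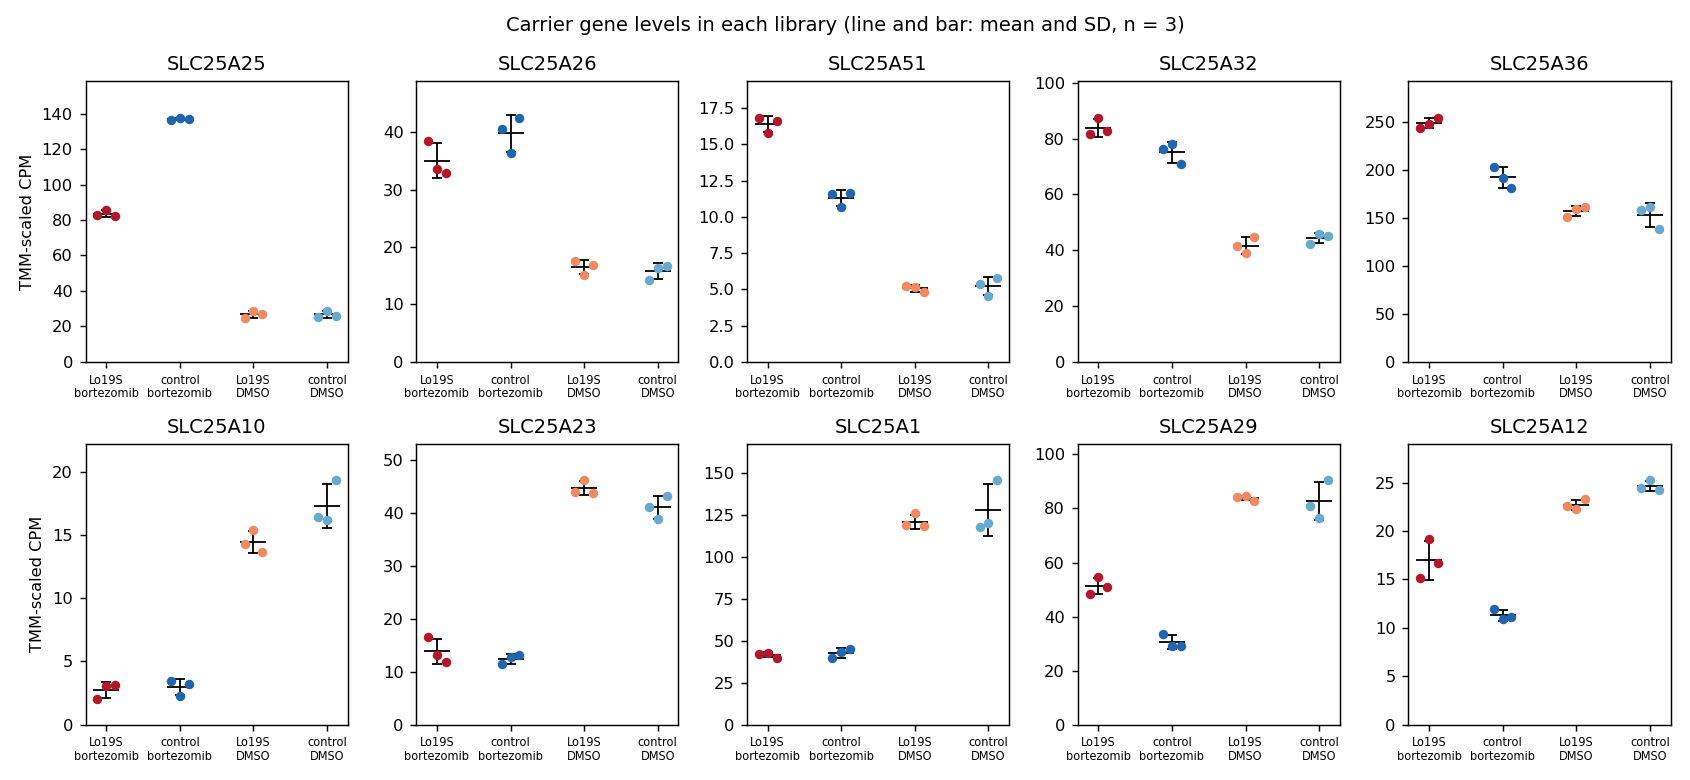
TMM-scaled CPM (y axis, from 0) of 10 carriers in each library, by group, with the group mean as a line and its SD as a bar (n = 3). In the upper row the bortezomib libraries lie above the DMSO libraries of their state, in the lower row below them. For SLC25A25, SLC25A29 and SLC25A12 the Lo19S libraries with bortezomib lie between the control libraries with bortezomib and the DMSO libraries.

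The 9 cofactor carriers split as well, with 5 rises and 4 falls in Lo19S cells and 4 rises and 3 falls in control cells. SLC25A51 brings NAD into the matrix. It was at 16.8, 15.8 and 16.6 CPM with bortezomib and 5.26, 5.16 and 4.81 CPM with DMSO in Lo19S cells, and at 11.6, 10.7 and 11.7 CPM with bortezomib and 5.36, 4.56 and 5.76 CPM with DMSO in control cells. It rose by 1.69 (SE 0.124, adjusted p = 5.24e-17) in Lo19S cells, the largest rise of a member there, and by 1.11 (SE 0.135, adjusted p = 3.41e-10) in control cells. SLC25A52, its close paralog, had at most 3 counts in a library. SLC25A26 imports S-adenosylmethionine, the methyl donor. Its values were 38.5, 33.7 and 32.8 CPM with bortezomib and 17.5, 15.2 and 16.9 CPM with DMSO in Lo19S cells, and 40.6, 36.3 and 42.5 CPM with bortezomib and 14.2, 16.4 and 16.7 CPM with DMSO in control cells. It rose by 1.07 (SE 0.089) in Lo19S cells and 1.34 (SE 0.089) in control cells.

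SLC25A32, which brings folate and FAD into mitochondria, was at 81.5, 87.5 and 82.7 CPM with bortezomib and 41.4, 38.9 and 44.7 CPM with DMSO in Lo19S cells. Control cells had 76.3, 78.1 and 70.7 CPM with bortezomib and 42.3, 45.7 and 45.2 CPM with DMSO. The rise was 1.01 (SE 0.060) in Lo19S cells and 0.76 (SE 0.061) in control cells. SLC25A17, a carrier of CoA, FAD and NAD in peroxisomes rather than mitochondria, rose by 0.43 (SE 0.064) and 0.44 (SE 0.064), though on library totals its value in control cells was 0.06 and not called. SLC25A16 rose by 0.31 (SE 0.074) in Lo19S cells, a call lost on library totals (0.024, adjusted p = 0.775). Its response of 0.14 in control cells was not called (adjusted p = 0.0685). There it was called lower on library totals (-0.24, adjusted p = 0.00354). It was called higher there with DESeq2 size factors (adjusted p = 0.0412) and without control DMSO replicate 2 (0.0318) or Lo19S bortezomib replicate 2 (0.0409).

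SLC25A42, which carries CoA and ADP, fell. It was at 5.50, 6.73 and 5.05 CPM with bortezomib and 15.6, 15.8 and 16.6 CPM with DMSO in Lo19S cells, and at 4.15, 3.90 and 4.88 CPM with bortezomib and 13.8, 13.1 and 16.7 CPM with DMSO in control cells. Its responses were -1.51 (SE 0.131) in Lo19S cells and -1.75 (SE 0.145) in control cells.

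SLC25A39 and SLC25A40 are paralogs that supply the matrix with glutathione, the main thiol antioxidant. SLC25A40 was at 9.32, 11.4 and 9.59 CPM with bortezomib and 18.3, 21.1 and 18.1 CPM with DMSO in Lo19S cells, and at 9.53, 8.02 and 9.77 CPM with bortezomib and 24.0, 22.3 and 20.6 CPM with DMSO in control cells. Both states showed a fall, with -0.95 (SE 0.111) in Lo19S cells and -1.30 (SE 0.113) in control cells. SLC25A39 was at 164, 167 and 164 CPM with bortezomib and 195, 193 and 184 CPM with DMSO in Lo19S cells, where it fell by 0.21 (SE 0.045). Control cells had 201, 206 and 189 CPM with bortezomib and 202, 199 and 229 CPM with DMSO, a response of -0.08 that was not called (adjusted p = 0.0867). It was called lower on library totals (-0.46, adjusted p = 4.25e-13), with no filter (-0.15, adjusted p = 0.00167), without control DMSO replicate 1 (-0.11, adjusted p = 0.0373) and without control DMSO replicate 2 (-0.12, adjusted p = 0.0164). The count ratio of SLC25A39 to SLC25A40 was 17.6, 14.6 and 17.1 in Lo19S cells with bortezomib and 10.6, 9.15 and 10.2 in Lo19S cells with DMSO. In control cells it was 21.1, 25.6 and 19.4 with bortezomib and 8.45, 8.93 and 11.1 with DMSO. In both states the ratio was higher in every bortezomib library than in every DMSO library.

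**Figure D3:**
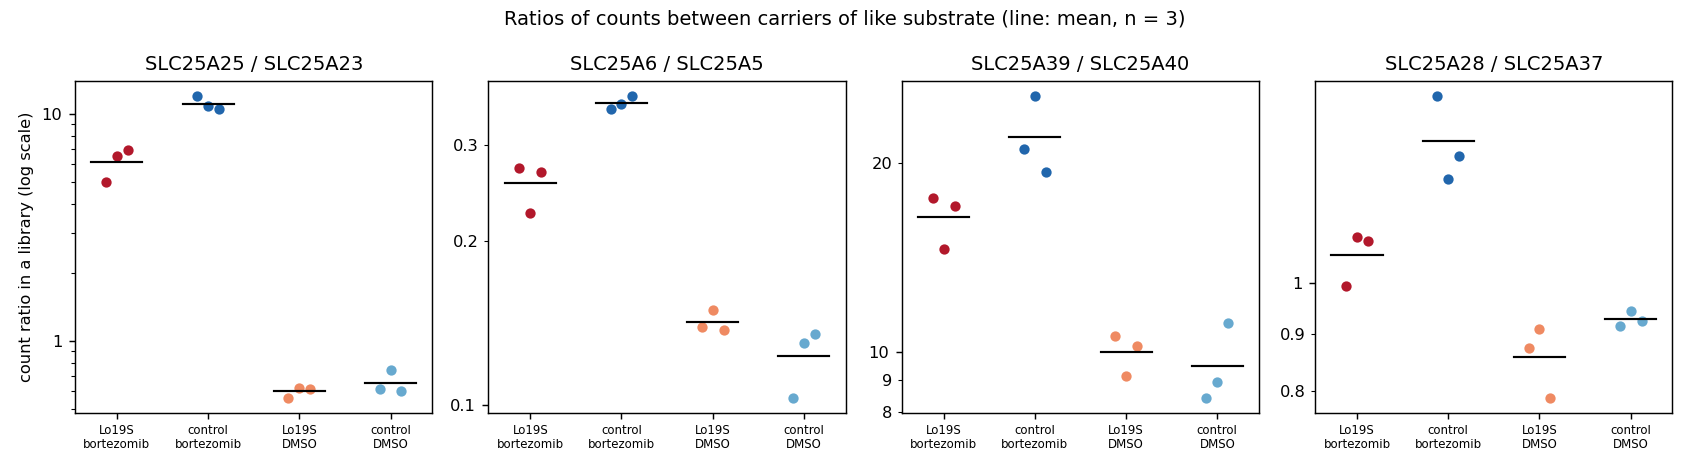
Ratio of counts between 2 carriers of like substrate in each library (y axis, log scale), by group, with the mean as a line (n = 3). The SLC25A25 to SLC25A23 ratio lies between 5.01 and 12 in the bortezomib libraries and between 0.563 and 0.743 in the DMSO libraries.

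The mitoferrins SLC25A28 and SLC25A37 import iron for heme and iron-sulfur clusters. SLC25A28 had 40.1, 38.3 and 40.2 CPM with bortezomib and 29.2, 31.2 and 29.7 CPM with DMSO in Lo19S cells, and 53.4, 49.8 and 47.0 CPM with bortezomib and 32.6, 32.0 and 34.4 CPM with DMSO in control cells. It rose by 0.40 (SE 0.071) in Lo19S cells, a call lost on library totals (0.11, adjusted p = 0.14), and by 0.60 (SE 0.068) in control cells. SLC25A37 was at 40.4, 34.8 and 36.7 CPM with bortezomib and 33.4, 34.3 and 37.6 CPM with DMSO in Lo19S cells. Control cells ran at 36.4, 40.1 and 36.1 CPM with bortezomib and 35.7, 33.9 and 37.2 CPM with DMSO. Its responses of 0.10 (SE 0.073, adjusted p = 0.232) and 0.08 (SE 0.073, adjusted p = 0.319) were not called. On library totals both were called falls, at -0.19 (adjusted p = 0.0139) in Lo19S cells and -0.30 (adjusted p = 0.000209) in control cells. The count ratio of SLC25A28 to SLC25A37 was 0.994, 1.10 and 1.09 in Lo19S cells with bortezomib against 0.874, 0.910 and 0.790 with DMSO. Control cells had 1.47, 1.24 and 1.30 with bortezomib and 0.915, 0.945 and 0.925 with DMSO.

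Of the 3 carriers related to uncoupling proteins, 3 rose in Lo19S cells and 2 in control cells. SLC25A27 (UCP4) was at 15.8, 17.6 and 18.9 CPM with bortezomib and 10.4, 10.6 and 11.7 CPM with DMSO in Lo19S cells, and at 12.3, 11.3 and 12.6 CPM with bortezomib and 10.6, 9.87 and 9.94 CPM with DMSO in control cells. It rose by 0.70 (SE 0.107) in Lo19S cells, and the response of 0.25 in control cells was not called (adjusted p = 0.0518). In control cells it was -0.13 on library totals, not called. It was called higher there with DESeq2 size factors (adjusted p = 0.0381), with only the 2 groups fitted (0.0488) and without control bortezomib replicate 2 (0.0396). Leaving out Lo19S bortezomib replicate 1, 2 or 3 also gave that call (0.0462, 0.0371 and 0.0486). SLC25A30 was at 39.4, 39.5 and 40.6 CPM with bortezomib and 32.9, 30.6 and 34.6 CPM with DMSO in Lo19S cells, and at 34.1, 35.1 and 35.9 CPM with bortezomib and 30.7, 29.2 and 25.2 CPM with DMSO in control cells. It rose by 0.29 (SE 0.073) in Lo19S cells and 0.30 (SE 0.077) in control cells, values that were 0.003 and -0.08 on library totals. SLC25A14 rose by 0.42 (SE 0.131) and 0.30 (SE 0.134, adjusted p = 0.0385). On library totals its values were 0.14 and -0.08, neither called, and in control cells its treatments overlapped and the call was lost in 4 of the 12 fits that left out 1 library.

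Among the 6 other carriers, SLC25A48 and SLC25A35 had the largest falls. SLC25A48 met the count minimum only through DMSO libraries, so its fall is in part built in by the rule and is given as a description. SLC25A48, of few counts, was at 0.358, 0.585 and 0.0721 CPM with bortezomib and 1.67, 2.5 and 1.6 CPM with DMSO in Lo19S cells, and at 0.733, 0.445 and 0.357 CPM with bortezomib and 3.17, 2.89 and 3.62 CPM with DMSO in control cells. Responses were negative in both states, at -2.76 (SE 0.451) in Lo19S cells and -2.64 (SE 0.363) in control cells. SLC25A35 was at 2.99, 4.98 and 3.39 CPM with bortezomib and 12.8, 12.9 and 12.4 CPM with DMSO in Lo19S cells, and at 1.83, 3.56 and 2.86 CPM with bortezomib and 12.5, 10.5 and 14.1 CPM with DMSO in control cells. It fell, with responses of -1.79 (SE 0.162) in Lo19S cells and -2.15 (SE 0.178) in control cells. SLC25A43 fell as well, with responses of -0.44 (SE 0.104) in Lo19S cells and -0.64 (SE 0.108) in control cells.

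SLC25A34 was at 2.03, 1.61 and 1.52 CPM with bortezomib and 1.12, 1.46 and 1.39 CPM with DMSO in Lo19S cells, a response of 0.36 that was not called (adjusted p = 0.276). Control cells had 2.32, 2.9 and 3.69 CPM with bortezomib and 1.36, 1.49 and 1.21 CPM with DMSO, a rise of 1.13 (SE 0.270, adjusted p = 0.000199). SLC25A45 was at 4.06, 5.85 and 4.62 CPM with bortezomib and 7.33, 6.89 and 5.88 CPM with DMSO in Lo19S cells, where it fell by 0.51 (SE 0.167, adjusted p = 0.0057), a call lost with DESeq2's Wald test (-0.49, adjusted p = 0.075). Its control values, 4.52, 4.90 and 3.57 CPM with bortezomib and 3.93, 3.82 and 5.11 CPM with DMSO, overlapped (0.03, adjusted p = 0.903; -0.36 on library totals). SLC25A46 is an outer membrane protein of mitochondrial fusion and fission. It was at 115, 107 and 113 CPM with bortezomib and 95.4, 87.7 and 103 CPM with DMSO in Lo19S cells, and at 87.2, 85.7 and 89.6 CPM with bortezomib and 82.6, 86.3 and 78.8 CPM with DMSO in control cells. It rose by 0.23 (SE 0.052) in Lo19S cells, where its value on library totals was -0.05. Its response of 0.08 in control cells was not called (adjusted p = 0.157), but on library totals it was a called fall (-0.30, adjusted p = 2.87e-06).

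The next comparison asks whether the bortezomib response of a carrier differed between the states, tested as the interaction term, the response in Lo19S cells minus that in control cells. It was called for 11 members, 7 with a positive and 4 with a negative difference (26.8% of 41, where 27.8% of all genes were called, 14.4% with a positive and 13.4% with a negative difference), and the members' median difference was 0.10 beside 0.01 over all genes. With library totals the split was 12 and 3, with 3331 and 1257 of all genes and their median at 0.10. Without control DMSO replicate 3 it was 10 and 7, with 2625 and 2356 of all genes. That fit added SLC25A24, SLC25A40 and SLC25A46 among the positive and SLC25A26, SLC25A39 and SLC25A45 among the negative differences.

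The falls of the aspartate/glutamate and basic amino acid carriers were smaller in Lo19S cells. The difference was 0.72 for SLC25A29 (SE 0.094, adjusted p = 3.42e-08), 0.69 for SLC25A12 (SE 0.137, adjusted p = 9.63e-05) and 0.47 for SLC25A13 (SE 0.097, adjusted p = 0.000183). The response was more positive in Lo19S cells for SLC25A51 (0.58, SE 0.189, adjusted p = 0.0171), SLC25A27 (0.46, SE 0.159, adjusted p = 0.027), SLC25A36 (0.34, SE 0.066) and SLC25A32 (0.25, SE 0.086, adjusted p = 0.025). It was less positive there for SLC25A25 (-0.72, SE 0.090, adjusted p = 1.42e-08), SLC25A6 (-0.58, SE 0.109, adjusted p = 4.18e-05) and SLC25A44 (-0.35, SE 0.064, adjusted p = 3.41e-05). SLC25A3 differed by -0.13 (SE 0.044, adjusted p = 0.0206), a call lost on library totals (-0.04, adjusted p = 0.544) and in 5 of the 12 fits that left out 1 library. With DESeq2's Wald test the differences of SLC25A27, SLC25A32 and SLC25A51 had adjusted p-values of 0.121, 0.0673 and 0.0809, and those of SLC25A27 and SLC25A32 also missed the threshold in 5 and 4 of the 12 fits that left out 1 library. For the 4 carboxylate carriers no difference was called, for example 0.03 (SE 0.099) for SLC25A1 and 0.18 (SE 0.259) for SLC25A10. SLC25A34 had the lowest estimate, -0.77 (SE 0.410, adjusted p = 0.167), and was not called.

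**Figure D4:**
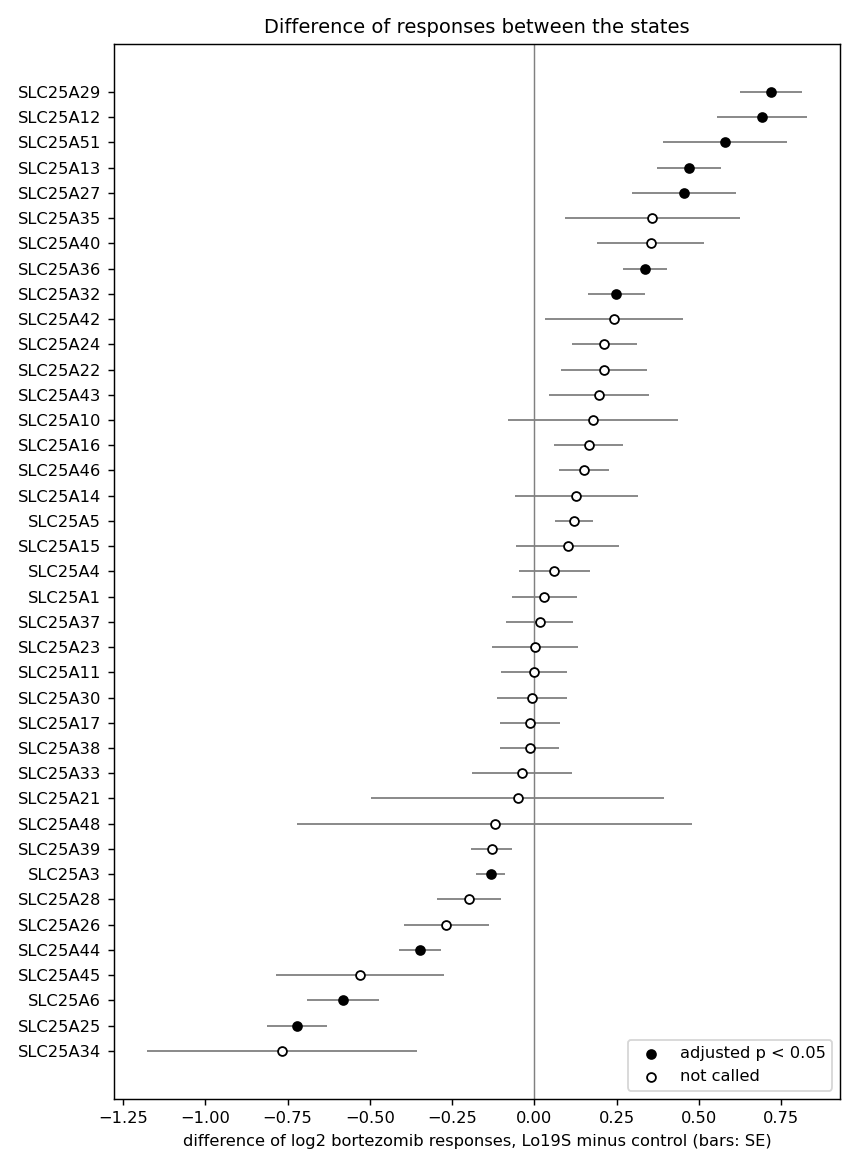
Difference of the log2 bortezomib responses, Lo19S minus control (x axis), of 39 members (y axis, ordered by the difference), with bars of 1 SE and filled points for calls at adjusted p below 0.05. SLC25A29 and SLC25A12 lead the positive side and SLC25A25 and SLC25A6 the called negative ones; SLC25A18, with counts of 0, and 1 other member are not drawn.

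Setting the 2 states side by side under bortezomib gives the levels at which these responses ended. Lo19S cells were higher for 9 members and lower for 8 (41.5% of 41, where 43.1% of all genes were called, 22% higher and 21.2% lower), with a median of 0.02 beside 0.004 over all genes. On library totals the split was 13 and 6, with 4920 and 1883 of all genes and their median at 0.12. Higher in Lo19S cells were SLC25A29 (0.74, SE 0.075), SLC25A12 (0.57, SE 0.110), SLC25A27 (0.55, SE 0.110), SLC25A51 (0.54, SE 0.112), SLC25A36 (0.38, SE 0.046), SLC25A46 (0.35, SE 0.054) and SLC25A13 (0.33, SE 0.074), and with smaller differences SLC25A30 (0.19) and SLC25A32 (0.16). Lower in Lo19S cells were SLC25A34 (-0.81, SE 0.269), SLC25A25 (-0.72, SE 0.052), SLC25A6 (-0.48, SE 0.076), SLC25A28 (-0.34, SE 0.068), SLC25A44 (-0.30, SE 0.045) and SLC25A39 (-0.27, SE 0.046). SLC25A26 (-0.19, adjusted p = 0.0483) was called lower too although its groups overlapped, and SLC25A3 was called lower at -0.10, a value that was 0.01 on library totals. The groups did not overlap for 19 of 41 members, where 52.9% of all genes did not. This comparison shares its libraries with the bortezomib responses above, so it is not separate evidence. Of these calls, those of SLC25A26, SLC25A30, SLC25A32 and SLC25A34 were lost with DESeq2's Wald test (adjusted p = 0.169, 0.115, 0.0715 and 0.0914), and in 7, 6, 2 and 2 of the 12 fits that left out 1 library.

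Lo19S cells with DMSO were compared with control cells with DMSO to describe the state without the drug. Of the carriers, 3 were higher and 4 lower (17.1% of 41, where 24.7% of all genes were called, 11.7% higher and 13% lower), with a median of -0.04 beside -0.004 over all genes. Whether the carriers' share differs from that of all genes was not tested. The groups did not overlap for 12 of 41 members, where 34.4% of all genes did not. SLC25A45 had the largest positive difference, at 7.33, 6.89 and 5.88 CPM in Lo19S cells and 3.93, 3.82 and 5.11 CPM in control cells (0.66, SE 0.163, adjusted p = 0.00163). This call held under every alternative tried, and the groups did not overlap. SLC25A46 was higher by 0.20 (SE 0.052, adjusted p = 0.00269) and SLC25A30 by 0.20 (SE 0.075, adjusted p = 0.0463), the second with overlapping groups. SLC25A48 was at 1.67, 2.5 and 1.6 CPM in Lo19S cells and 3.17, 2.89 and 3.62 CPM in control cells (-0.73, SE 0.247, adjusted p = 0.0238), a call lost with DESeq2's Wald test (adjusted p = 0.216). SLC25A39 (-0.14, SE 0.043) and SLC25A5 (-0.11, SE 0.038) were called with small differences. The SLC25A5 call was lost on library totals (adjusted p = 0.0561), with only the 2 groups fitted (0.0843), without control DMSO replicate 1 (0.0675) and without Lo19S DMSO replicate 2 (0.14). Without Lo19S DMSO replicate 3 the calls of SLC25A46 (adjusted p = 0.0577), SLC25A30 (0.189), SLC25A39 (0.0915) and SLC25A48 (0.0976) were lost, and that of SLC25A30 was lost in 10 of the 12 fits that left out 1 library. The 34 members not called lay between -0.26 and 0.13, apart from SLC25A18, among them SLC25A10 (-0.26, adjusted p = 0.066) and SLC25A4 (-0.18, adjusted p = 0.0532). SLC25A4, whose groups did not overlap, was called lower with no filter (adjusted p = 0.047). It was also called lower without control DMSO replicate 1 (0.0488) and without control bortezomib replicate 3 (0.0462). Without control DMSO replicate 3 the split was 3 and 6, with 2186 and 2417 of all genes. SLC25A6 was then called higher and SLC25A4, SLC25A13, SLC25A24 and SLC25A40 lower, while SLC25A48 (adjusted p = 0.057), SLC25A30 (0.237) and SLC25A39 (0.0983) lost their calls.

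Genes that work with the carriers were read from 4 lists. Beside their counts, 77.5% of all genes were called with bortezomib in Lo19S cells and 81.4% in control cells. A difference of responses was called for 27.8% of all genes. Of 10 genes of carrier import, the chaperones and translocases that bring these proteins to the inner membrane, 4 rose and 4 fell in Lo19S cells and 2 rose and 5 fell in control cells (medians -0.01 and -0.08). TIMM22, the channel of the carrier translocase, rose by 0.64 (SE 0.084) in Lo19S cells and 0.77 in control cells. TIMM8A changed by -0.41 and -0.52, and TIMM10, a chaperone of the space between the membranes, by -0.37 and -0.44. The responses of TIMM9 and TOMM70, the outer membrane receptor for carriers, differed between the states by 0.40 and 0.27, both called.

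Of 4 tested family members under other symbols, 1 rose and 2 fell in Lo19S cells and 2 rose and 2 fell in control cells. Over all genes, 77.5% and 81.4% were called in Lo19S and control cells. UCP2 fell, with -0.64 (SE 0.056) in Lo19S cells and -0.79 (SE 0.056) in control cells. MTCH2, an insertase of the outer membrane, fell, with -0.36 (SE 0.040) in Lo19S cells and -0.72 (SE 0.041) in control cells, a called difference of 0.36. MTCH1 rose by 0.26 in Lo19S cells (-0.03 on library totals) and by 0.73 in control cells, a called difference of -0.47. UCP3, called in control cells at 0.90, lost its call on library totals (adjusted p = 0.254), with no filter (0.0973) and with only the 2 groups fitted (0.0528). The call was also lost with DESeq2's Wald test (adjusted p = 0.204) and in several fits that left out 1 library.

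Among 14 other mitochondrial transporters, 5 rose and 4 fell in Lo19S cells and 6 rose and 6 fell in control cells (medians 0.07 and -0.02). For these and for the enzymes below, the shares of all genes called were 77.5% in Lo19S cells and 81.4% in control cells. SFXN2, a sideroflexin, fell, with -2.01 (SE 0.060) in Lo19S cells and -2.42 (SE 0.060) in control cells, and SFXN3 fell with -0.92 and -0.96. VDAC2, a pore of the outer membrane, rose by 0.75 (SE 0.059) in Lo19S cells and 1.03 (SE 0.057) in control cells. The response differed between the states for 9 of the 14 transporters, 5 with a positive and 4 with a negative difference, where 27.8% of all genes were called. The largest were those of MPC1 of the pyruvate carrier (0.47, SE 0.136), SFXN2 (0.41, SE 0.091) and the calcium channel subunit MCU (-0.37, SE 0.107). Of 6 enzymes that share metabolites with the citrate carrier and the malate-aspartate shuttle, 2 rose and 4 fell in Lo19S cells and 1 rose and 4 fell in control cells (medians -0.28 and -0.36). GOT1, the cytosolic aspartate aminotransferase, rose by 1.03 in Lo19S cells and 0.89 in control cells. MDH1, the cytosolic malate dehydrogenase, fell with -0.43 and -0.57, MDH2, its matrix counterpart, with -0.41 and -0.62, and ACLY, which splits citrate, with -0.59 and -0.49, in Lo19S and control cells. The response of MDH2 differed by 0.21 (SE 0.052) and that of GOT1 by 0.14 (SE 0.056, adjusted p = 0.05 after rounding). The GOT1 call was lost with DESeq2's Wald test (adjusted p = 0.0768), DESeq2 size factors (0.0865), no filter (0.0816) and the replicate block (0.0681). It was also lost in most fits that left out 1 library.

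Under bortezomib the same lists gave 2 higher and 0 lower of 10 import genes in Lo19S against control cells, 1 and 1 of 4 family members under other symbols, 4 and 4 of 14 other transporters and 3 and 1 of 6 enzymes. With DMSO the counts were 0 and 0, 0 and 0, 2 and 1, and 2 and 2 in the same order. Of all genes, 43.1% were called between the states under bortezomib (22% higher and 21.2% lower). With DMSO 24.7% were called (11.7% higher and 13% lower). With DMSO the called transporters of largest difference were SFXN2 (-0.38) and ABCB8 (0.34), and the called enzymes of largest difference were MDH1 (0.19), GOT1 (-0.17) and ACLY (-0.11). Under bortezomib MTCH1 (-0.53) and MTCH2 (0.33) stood on opposite sides, as did MCU (-0.47) and MPC1 (0.39). MDH1 (0.34), MDH2 (0.31) and ACLY (-0.21) led the enzymes, and TIMM9 (0.27) and TOMM70 (0.23) were the 2 import genes called.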

How the data were processed

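Each deposited file lists raw read counts by Ensembl gene for 1 of 12 libraries, 3 for each of 4 groups. Per the submitters' processing notes, reads were aligned with STAR 2.5.4b and counted with featureCounts 1.6.1 on GRCh37. Neither these notes nor the labels state an annotation release, a strand setting or how multi-mapping reads were handled. Library totals of 7376597 to 15003480 counts set the precision, which is low for carriers of a few counts.

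The counts as deposited were scaled by TMM and tested with edgeR 4.0.16 in R 4.3.3 (robust quasi-likelihood F test), in 1 fit of all 12 libraries over the 14714 genes that passed filterByExpr. P-values were adjusted by Benjamini-Hochberg over all genes tested and a gene was called below 0.05. A standard error is the log2 fold change divided by the square root of its F value. There were 5 comparisons. Alternatives were DESeq2 size factors, library totals, DESeq2 1.42.0 (Wald test), no filter, a filter of 10 counts in 3 libraries, only the 2 groups compared, the replicate block and each library left out. Per-kilobase levels used transcript lengths of a GENCODE annotation on GRCh38, and gene types came from the same annotation.

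Values in every library are given for called members among the largest rises and falls of a comparison, for the 4 most abundant members and for paralogs of the same substrate. Genes of related lists are the called ones of largest change. The members and lists were chosen with earlier results of these data known. SLC25A53 was not analysed here, and single values of 1 member and of 1 gene of a related list, which stay in the counts, are not reported here.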

Additional observations from a re-analysis of the deposited data

Results flagged for a closer look

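The bortezomib response of 11 carriers differed between the states by the interaction term of edgeR's quasi-likelihood test (Lo19S minus control, log2). The positive differences were 0.72 for SLC25A29, 0.69 for SLC25A12, 0.58 for SLC25A51, 0.47 for SLC25A13, 0.46 for SLC25A27, 0.34 for SLC25A36 and 0.25 for SLC25A32. The negative ones were -0.72 for SLC25A25, -0.58 for SLC25A6, -0.35 for SLC25A44 and -0.13 for SLC25A3. Of these, SLC25A3, SLC25A27, SLC25A32 and SLC25A51 lost the call under at least 1 alternative.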

How the results depend on the processing

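Calls held under every alternative for 30 of 36 members in the bortezomib response of Lo19S cells, 30 of 35 in that of control cells, 12 of 17 between the states under bortezomib, 2 of 7 between the states with DMSO and 7 of 11 in the interaction. The 30 in each bortezomib response include SLC25A18 and SLC25A48, whose falls are in part built in by the rule. The matching share over all genes is not given, so these counts do not set the carriers apart. For those that changed, the cause was not tested beyond what a setting does by construction. Carriers of few counts, SLC25A18, SLC25A21, SLC25A34 and SLC25A48, are limited by depth.

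With library totals in place of TMM factors, 3717 genes were called higher in the bortezomib response of control cells, 4920 higher and 1883 lower in Lo19S against control cells under bortezomib, and 3331 positive and 1257 negative in the interaction, with 12 positive members there. Library totals turned the direction in control cells of SLC25A36 (-0.053), SLC25A46 (-0.30), SLC25A27 (-0.13), SLC25A14 (-0.084), SLC25A37 (-0.30), SLC25A16 (-0.24), SLC25A45 (-0.36), SLC25A3 (-0.26) and SLC25A30 (-0.083). In Lo19S cells they turned SLC25A46 (-0.055), SLC25A6 (-0.17), SLC25A37 (-0.19) and MTCH1 (-0.027), and between the states under bortezomib SLC25A3 (0.011). Of the turned values, those of SLC25A3, SLC25A16, SLC25A37 and SLC25A46 in control cells were called lower. In Lo19S cells those of SLC25A6 and SLC25A37 were called lower. With no filter SLC25A45 was at -0.045 in control cells. With only the 2 DMSO groups fitted, 2 members were lower in Lo19S cells. DESeq2's Wald test called 1144 genes higher and 1260 lower with DMSO, and 4 members positive in the interaction.

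Leaving out 1 library at a time gave 1 to 3 members higher and 2 to 6 lower with DMSO (1307 to 2186 and 1526 to 2417 genes), and 7 to 9 higher and 6 to 8 lower between the states under bortezomib (2752 to 3572 and 2616 to 3508 genes). It gave 15 to 16 rises and 21 to 22 falls with bortezomib in Lo19S cells (5378 to 5779 and 5494 to 6049 genes), and 14 to 17 and 20 to 21 in control cells (5594 to 5916 and 6064 to 6298 genes). In the interaction it gave 5 to 10 positive and 3 to 7 negative members (1806 to 2625 and 1602 to 2356 genes). Uncalled values that changed sign were SLC25A45 in control cells (-0.076 to 0.16), SLC25A3 in Lo19S cells (-0.02 to 0.027) and SLC25A1 in the interaction (-0.072 to 0.091).

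No shared effect of the replicate number was seen: deviations from the group means of libraries with the same number correlated at -0.072 to 0.026 over 18 pairs, and with different numbers at -0.031 to 0.062. These values cannot show whether libraries of the same number were handled together. With the replicate block, SLC25A30 with DMSO (adjusted p = 0.0581) and GOT1 in the interaction (adjusted p = 0.0681) lost their calls. The block gave 2 higher and 4 lower members with DMSO (1644 and 1801 genes) and 7 positive and 4 negative members in the interaction (2025 and 1864 genes).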
